A study of Mus musculus with 5 samples.

Results

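The genes described here encode matrix glycoproteins, proteoglycans and lysyl oxidase, which surround, organise and crosslink the collagen and elastin fibres of connective tissue. There were 10 of them: Fn1, Tnc, Sparc, Spp1, Thbs1, Lox, Dcn, Lum, Bgn and Vcan. Every probe set whose only gene symbol in the annotation of the array was 1 of these names was taken, which gave 26 probe sets for 9 genes, out of 34945 probe sets for 18193 genes in all. Spp1, which encodes the secreted phosphoprotein osteopontin, had no such probe set and was not analysed here. A further probe set shared by Thbs1 and another gene, 1 in all, was left out by the same rule.

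RNA was measured in the esophagus of CC10-rtta/teton-IL-13 transgenic mice on the FVB/N background, 3 to 4 months of age, in 5 Affymetrix Mouse Genome 430 2.0 arrays. The mice of 3 arrays were fed doxycycline (Dox) and those of 2 arrays a regular diet (NoDox). Both groups carried the transgenes, and the diet that switches interleukin-13 on is the only difference that the labels state. CC10 is the name of a secretory protein of airway club cells, so the promoter that drives the transactivator is one known from the airway. Mice without the transgenes on doxycycline were not analysed here, so the drug and the transgene cannot be told apart. The labels do not say that the arrays were separate animals, and the p-values then measure only the spread between these arrays. In a whole organ, fewer cells of a type and less RNA per cell cannot be told apart.

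Each value is the signal of a probe set divided by its mean in both NoDox arrays, so the NoDox mean is 1 by construction and a ratio of 2 is a doubling. Differences were tested on the log2 scale with limma across all genes, 1 probe set per gene, and again across all probe sets, with Benjamini-Hochberg adjustment and a threshold of adjusted p under 0.05. The probe set that stands for a gene was the one with the highest signal level, a level recovered from the ratios in whole signal steps, since the deposited ratios hold none. The level tells how bright a probe set was, and levels of different probe sets are not compared as amounts of RNA. The median log2 fold change of all genes was -0.08, and 250 genes were called higher and 216 lower in Dox. With each array centred on its median the split was 303 to 153, and with quantile normalization 301 to 112. As a check of the labelled tissue, 6 of 7 measured markers of squamous epithelium, which lines the mouse esophagus, had signal levels above the 85th percentile of all probe sets. The same held for 6 of 7 smooth muscle, 8 of 12 macrophage and 6 of 10 fibroblast markers, so the levels show that these markers were bright and not how much of each tissue was present.

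Fibronectin and tenascin-C are large glycoproteins that bind cells through integrins and are laid down during wound repair. Thrombospondin-1 and SPARC are matricellular proteins, which regulate cells and growth factors rather than bearing load. Decorin, lumican and biglycan are small leucine-rich proteoglycans that bind collagen and set the width of its fibrils. Versican is a large proteoglycan that carries chondroitin sulfate and binds hyaluronan, and lysyl oxidase is the copper enzyme that starts the covalent crosslinking of collagen and elastin. In inflamed esophagus these proteins are studied as part of the remodelling of the layer under the epithelium.

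Of the 9 measured genes, fibronectin was the only one called higher in Dox. The adjusted p was under the threshold in the higher direction for 1 of 9 genes, beside 1.37% of all genes, and for none in the lower direction, beside 1.19% of all genes. At an unadjusted p under 0.05 in the same limma fit, 3 of the 9 genes were higher (Fn1, Thbs1 and Lox) and 1 was lower (Vcan), beside 6.81% and 10.7% of all genes. All 3 Dox arrays lay above both NoDox arrays for 3 of 9 genes (Fn1, Thbs1 and Lox), as for 13.6% of all genes, and below both for 3 of 9 (Sparc, Dcn and Vcan), as for 22.3%. The median log2 fold change of the 9 genes was -0.07, close to that of all genes, with 4 genes above 0 and 5 below. The 26 probe sets divided evenly, with 13 above 0 and 13 below. Of these probe sets 1 was called higher, beside 0.781% of all probe sets, and none lower, beside 0.773%. The Dox arrays lay apart above the NoDox arrays for 9 probe sets (12.2% of all probe sets) and apart below them for 6 (21.8%). At an unadjusted p under 0.05, 6 of the 26 probe sets were higher (23.1%, beside 5.60% of all probe sets) and 4 lower (15.4%, beside 9.96%).

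**Figure D1:**
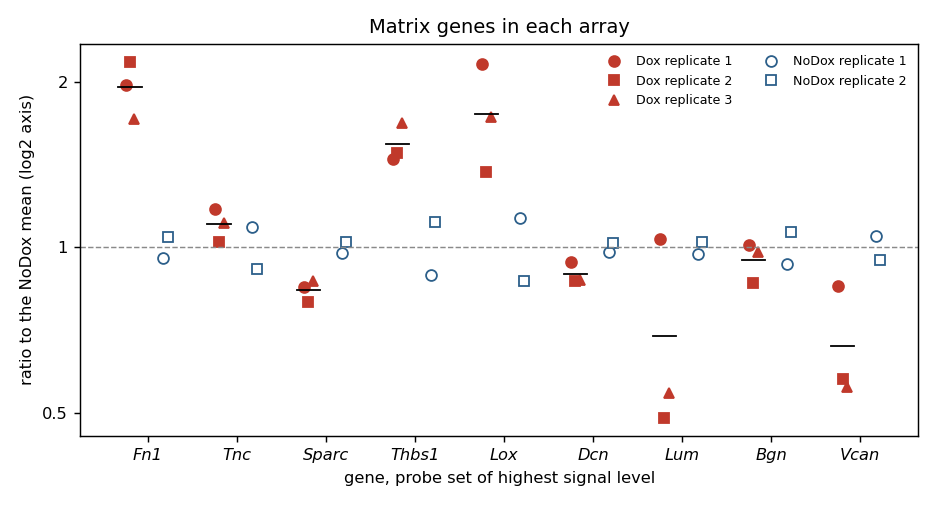
Ratio to the NoDox mean (log2 axis) of the probe set that stands for each of the 9 measured genes, with 1 point per array, filled for Dox (n = 3) and open for NoDox (n = 2), and a bar at the mean of the Dox arrays. All Dox points of Fn1 lie between 1.71 and 2.17, whereas Lum and Vcan have Dox replicate 1 at 1.04 and 0.852 and the other Dox arrays between 0.490 and 0.578.

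Fibronectin RNA was almost doubled in Dox. The probe set 1426642_at of Fn1 gave ratios of 1.98, 2.17 and 1.71 in Dox replicates 1, 2 and 3, and of 0.957 and 1.04 in NoDox replicates 1 and 2. Every Dox array was well above both NoDox arrays, and the lowest Dox value was replicate 3. The Dox mean was 1.95 ± 0.234 (SD, n = 3). The log2 fold change was 0.96 ± 0.15 (SE), a fold of 1.95, with a 95% confidence interval of 0.63 to 1.29 and a limma adjusted p of 0.0120. The other Fn1 probe set, 1437218_at, read 1.90, 1.43 and 1.77 in the Dox arrays against 1.15 and 0.854 in the NoDox arrays. These values pointed the same way without overlap, and the log2 fold change of 0.77 ± 0.19 had a limma adjusted p of 0.0982 over all probe sets. Of 16 alternative settings, the offsets, the level filter and the probe set of highest mean ratio left the Fn1 log2 fold change at 0.96. The offsets were not added to its probe set, whose level is only a lower bound. These settings could move its p-value only through the other genes. Fn1 was past the threshold in 12 of the 16, these included, with log2 fold changes of 0.86 to 1.06 and adjusted p-values of 0.00109 to 0.295. It was not past it without NoDox replicate 1 (0.90, adjusted p = 0.186), without NoDox replicate 2 (1.02, 0.128), without a variance trend (0.195) or with the trend on the mean log2 ratio (0.295). Over all probe sets the adjusted p of 1426642_at was 0.0207, with 0.0510 without Dox replicate 1, in a range of 0.00333 to 0.451, and that of 1437218_at was 0.0472 without Dox replicate 2, in a range of 0.0394 to 0.569.

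Genes near Fn1 in their 5 log2 ratios were sought only among probe sets with a recovered level. Genes for which only a lower bound of the level was found, as for Fn1 itself, were left out. The nearest were Irf7, an interferon regulatory factor, and Fkbp11, a peptidyl-prolyl isomerase of the endoplasmic reticulum. Their root mean square distances from Fn1 were 0.075 and 0.085 on the log2 scale over the 5 arrays. Irf7 read 2.06, 2.03 and 1.62 in Dox and 0.9993 and 1.001 in NoDox, with a log2 fold change of 0.92 ± 0.24 and an adjusted p of 0.0885. Fkbp11 read 1.90, 1.99 and 1.60 in Dox and 0.9985 and 1.002 in NoDox, with 0.87 ± 0.25 and an adjusted p of 0.116.

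Macrophages also make fibronectin, and their markers rose in the same arrays. Of 12 macrophage markers, 6 passed the threshold: Cd68 (log2 fold change 1.54), Tyrobp (1.42), Fcgr3 (1.08), Adgre1 (0.97), Lyz2 (0.91) and Csf1r (0.80). All 12 were higher in every Dox array than in both NoDox arrays, as were 13.6% of all genes. Over the 4 macrophage markers with a recovered level, the summed signal was 81673 to 93028 steps in Dox and 39483 to 41141 steps in NoDox. Lung and airway markers moved the same way, with 5 of 8 called higher (Sftpc, Sftpa1, Sftpd, Napsa and Ager) and summed signals of 41826 to 81626 steps in Dox against 20900 to 21926 steps in NoDox over 3 markers. Of 10 fibroblast markers none passed, with 1 higher and 1 lower at an unadjusted limma p under 0.05, and their median log2 fold change was -0.07. The summed signal of 6 fibroblast markers was 105471 to 145441 steps in Dox and 133594 to 134270 steps in NoDox. Liver and plasma protein markers had log2 fold changes below 0 for 6 of 6 genes, whereas 42.0% of all genes were above 0. None was past the threshold and 2 were lower at an unadjusted limma p under 0.05. Their summed signal was 5135 to 6678 steps in Dox against 9616 to 25560 steps in NoDox. The part of these cells in the Fn1 difference was not tested.

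Tenascin-C gave no difference that passed the test, and its probe sets differed in size. Tnc probe set 1416342_at read 1.18, 1.02 and 1.11 in Dox and 1.09 and 0.913 in NoDox. The groups overlapped, since NoDox replicate 1 lay above Dox replicate 2. It gave a log2 fold change of 0.14 ± 0.15, with a confidence interval of -0.20 to 0.48 and an adjusted p of 0.684. The dimmer probe set 1456344_at read 2.20, 1.65 and 2.40 in Dox against 0.610 and 1.39 in NoDox. The groups did not overlap there, but the NoDox arrays lay far apart, and the log2 fold change of 1.16 ± 0.54 had an adjusted p of 0.347 over all probe sets.

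Thrombospondin-1, a matricellular protein that can activate latent TGF-beta, was higher in Dox by values that did not pass the adjusted test. Thbs1 probe set 1460302_at read 1.45, 1.49 and 1.69 in Dox and 0.889 and 1.11 in NoDox. The Dox arrays were close together and all above the NoDox arrays. Their log2 fold change was 0.63 ± 0.24, with a confidence interval of 0.10 to 1.16, an unadjusted limma p of 0.0255 and an adjusted p of 0.208. The other probe set, 1450377_at, read 1.11, 1.27 and 0.965 in Dox and 0.937 and 1.06 in NoDox, which overlap, and its log2 fold change was 0.15 ± 0.25. Thrombospondin-1 is abundant in platelets, and of 7 platelet markers none passed the threshold and 1 was lower at an unadjusted limma p under 0.05. Their median log2 fold change was 0.00, and their summed signal over 6 markers was 33833 to 75793 steps in Dox and 45504 to 59823 steps in NoDox.

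SPARC, a collagen-binding protein of connective tissue cells, was slightly lower in Dox, again without passing the test. Sparc probe set 1416589_at read 0.847, 0.797 and 0.870 in Dox and 0.978 and 1.02 in NoDox. All Dox arrays lay just below both NoDox arrays. The log2 fold change was -0.26 ± 0.12, with a confidence interval of -0.53 to 0.02 and an adjusted p of 0.315. The second bright probe set, 1448392_at, read 0.870, 0.778 and 0.782 in Dox and 1.03 and 0.967 in NoDox, with a log2 fold change of -0.31 ± 0.13 and an adjusted p of 0.307 over all probe sets. These probe sets were read at levels of at least 44520 and 42596 steps. The dim probe set 1458204_at, at 3028 steps, had overlapping groups and a log2 fold change of 0.41 ± 0.36.

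**Figure D2:**
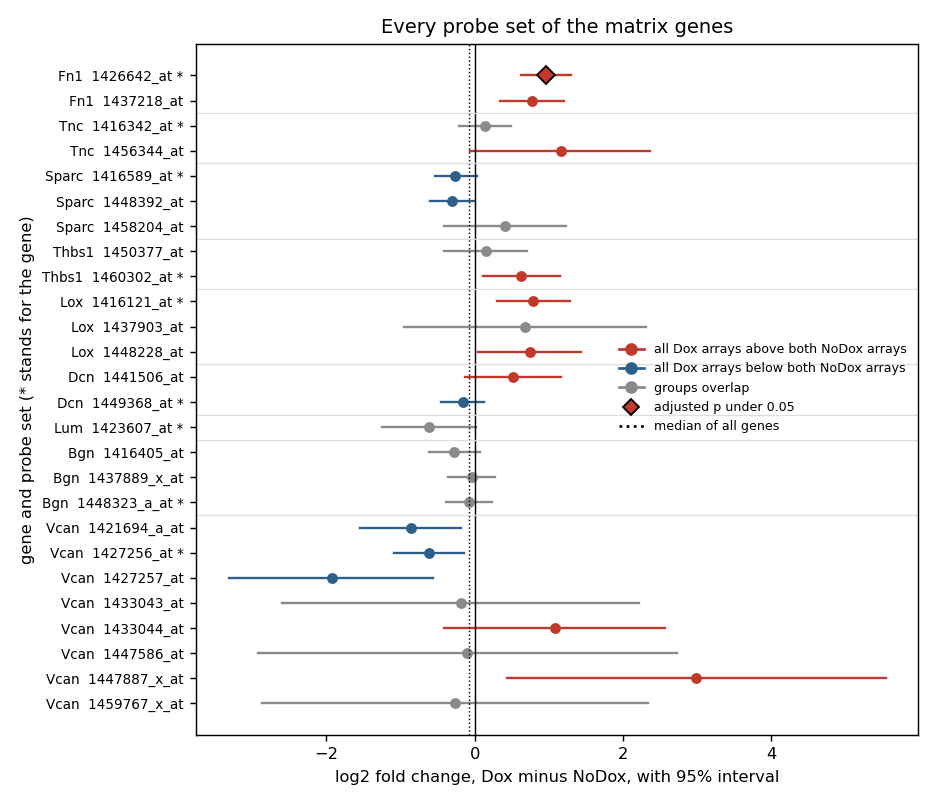
Log2 fold change, Dox minus NoDox, with its 95% confidence interval, for all 26 probe sets, coloured by whether the Dox arrays (n = 3) lie apart from the NoDox arrays (n = 2). The diamond marks the probe set 1426642_at of Fn1, the 1 probe set past the threshold, and the Vcan intervals reach from -3.31 to 5.54.

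For the proteoglycans Bgn and Vcan the 250 bases before the RefSeq gene start (GRCm38.p6) are shown, because both are matrix proteoglycans with several probe sets and differ in how those probe sets read. Capitals mark matches, on either strand, to 6 motifs. These were TTCNNNNGAA, the spacing preferred by STAT6, the factor that interleukin-13 activates, and TTCNNNGAA, that of other STAT factors. The core promoter motifs were TATAAA, read by the TATA-binding protein, GGGCGG, known as the GC box and read by Sp1, and CCAAT, read by NF-Y. The last was TGACTCA, read by AP-1. The Bgn window is chrX:73483351-73483600, plus strand, and the Vcan window chr13:89742513-89742762, minus strand, both written 5′ to 3′ along the gene.
Bgn: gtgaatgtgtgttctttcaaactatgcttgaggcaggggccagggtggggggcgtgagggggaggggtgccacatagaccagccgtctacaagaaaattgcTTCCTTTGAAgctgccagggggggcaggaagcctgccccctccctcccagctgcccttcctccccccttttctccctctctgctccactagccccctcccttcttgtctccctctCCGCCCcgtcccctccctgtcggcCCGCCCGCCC
Vcan: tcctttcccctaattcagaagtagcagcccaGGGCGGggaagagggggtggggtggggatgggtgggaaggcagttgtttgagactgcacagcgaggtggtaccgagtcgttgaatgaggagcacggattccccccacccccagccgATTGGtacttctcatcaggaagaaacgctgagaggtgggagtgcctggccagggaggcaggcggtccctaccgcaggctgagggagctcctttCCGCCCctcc
The Bgn window held 1 TTCNNNNGAA match, from -149 to -140 relative to the gene start, and 3 GC boxes on the opposite strand, the last pair of which overlap. The Vcan window held 2 GC boxes and 1 CCAAT box, the latter from -103 to -99 on the opposite strand, and no TTCNNNNGAA. Of 32851 windows of this length, 5.85% held TTCNNNNGAA, 7.02% TTCNNNGAA, 12.4% TATAAA, 32.7% GGGCGG, 4.46% TGACTCA and 33.8% CCAAT. Of the other measured genes with a window, Tnc held 1 TATAAA and 1 GGGCGG in each of its 2 windows and Sparc held none of the motifs.

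Decorin and biglycan, the small proteoglycans that share a family and bind collagen fibrils, gave ratios close to 1 in Dox in their brightest probe sets. Dcn probe set 1449368_at read 0.941, 0.868 and 0.874 in Dox and 0.980 and 1.02 in NoDox. The Dox arrays lay below the NoDox arrays by a small margin, and the log2 fold change was -0.16 ± 0.12, with a confidence interval of -0.44 to 0.11 and an adjusted p of 0.548. The dimmer Dcn probe set 1441506_at lay the other way, with 1.41, 1.26 and 1.67 in Dox and 1.01 and 0.994 in NoDox. Its log2 fold change of 0.52 ± 0.29 had an adjusted p of 0.434 over all probe sets, so the sign for Dcn depends on the probe set.

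Bgn, whose window is shown above with its STAT-type match, had 3 bright probe sets whose levels are lower bounds, so which of them stands for the gene is arbitrary. Probe set 1448323_a_at read 1.01, 0.861 and 0.980 in Dox and 0.932 and 1.07 in NoDox. The groups overlapped, and the log2 fold change of -0.07 ± 0.13 had a confidence interval of -0.38 to 0.23 and an adjusted p of 0.829. It was 0.01 with each array centred on its median, 0.05 with quantile normalization and 0.02 without NoDox replicate 2. Its sign therefore depends on the setting, and the quantile normalization took the lower bound as the signal level. Probe set 1437889_x_at, whose suffix marks probes that may also bind other transcripts, gave -0.04 ± 0.14. Probe set 1416405_at gave -0.28 ± 0.15, with overlapping groups of 0.759, 0.774 and 0.955 in Dox and 0.937 and 1.06 in NoDox.

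Lumican, which binds collagen and is abundant in connective tissue, was divided within the Dox group. Its 1 probe set, 1423607_at, read 1.04, 0.490 and 0.544 in Dox replicates 1, 2 and 3 and 0.975 and 1.03 in NoDox. Dox replicate 1 was at the NoDox level and the other Dox arrays were near 0.5 of it, so the groups overlapped. The log2 fold change was -0.62 ± 0.28, with a confidence interval of -1.25 to 0.01 and an adjusted p of 0.294. Without Dox replicate 1 it was -0.95 with an adjusted p of 0.0174, and over all 16 alternatives the adjusted p ran from 0.0174 to 0.670. The summed signal of 6 fibroblast markers was also highest in Dox replicate 1, at 145441 steps against 121993 in replicate 2 and 105471 in replicate 3. The median ratio of all 10 fibroblast markers was 1.11, 0.988 and 0.899 in Dox replicates 1, 2 and 3. Of these markers Pdgfrb, Twist2, Vim and Cd34 were highest in another Dox array than replicate 1. The part of fibroblasts in the Lum values was not tested.

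In the RefSeq gene order (GRCm38.p6), Dcn, Lum, Kera and Epyc lie next to each other. The probe sets that stand for these 4 genes had log2 fold changes below 0. For Dcn this sign depends on the probe set, as given above, with 0.52 for 1441506_at. Ccer1, the next gene after Epyc, lay the other way, with all Dox arrays above both NoDox arrays. Its log2 fold change was 1.71 with an adjusted p of 0.429, at a low level (percentile 7.03 of all probe sets). Kera, which encodes the corneal proteoglycan keratocan and was named after its value was seen, was read at a low level of 664 steps and gave -2.54 ± 0.87 with an adjusted p of 0.174. Epyc, which encodes the cartilage proteoglycan epiphycan, read 0.728, 0.509 and 0.459 in Dox against 1.08 and 0.916 in NoDox. Its log2 fold change of -0.85 ± 0.23 had an adjusted p of 0.0994. None of the 4 passed the threshold, and of all genes 42.0% had a log2 fold change above 0.

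Versican was lower in Dox in its 3 brightest probe sets, without passing the test, and its 5 dimmest probe sets disagreed. Vcan probe set 1427256_at, at 15173 steps, read 0.852, 0.578 and 0.558 in Dox and 1.05 and 0.949 in NoDox. All Dox arrays lay below both NoDox arrays, with replicate 1 again the nearest to them. The log2 fold change was -0.62 ± 0.21, with a confidence interval of -1.09 to -0.15, an unadjusted limma p of 0.0154 and an adjusted p of 0.168. Probe set 1421694_a_at read 0.704, 0.572 and 0.402 in Dox and 0.852 and 1.15 in NoDox, a log2 fold change of -0.86 ± 0.30 with an adjusted p of 0.215 over all probe sets. Probe set 1427257_at gave the largest lower value, with 0.262, 0.131 and 0.523 in Dox and 0.979 and 1.02 in NoDox. It was itself dim, with a level of 1893 steps at the 38.4th percentile of all probe sets. Its log2 fold change of -1.93 ± 0.61 had an adjusted p of 0.173. In each of these probe sets the Dox and NoDox arrays did not overlap.

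The other Vcan probe sets were read at 97 to 762 steps. Probe set 1447887_x_at, the dimmest at 97 steps, read 12.98, 2.55 and 14.1 in Dox and 0.801 and 1.20 in NoDox. Its level lay at the 1.45th percentile of all probe sets, and its log2 fold change was 2.99 ± 1.13 with an adjusted p of 0.247. This was 3.79 without Dox replicate 2, the lowest of the Dox arrays. It was 0.40 with the lower quartile of levels added to every signal with a recovered level, and 0.13 with the median level added. Probe set 1433044_at gave 1.08 ± 0.66 without overlap, and 1433043_at, 1447586_at and 1459767_x_at gave -0.19 ± 1.07, -0.10 ± 1.25 and -0.27 ± 1.15 with overlapping groups. Taking the mean over all Vcan probe sets gave 0.01 and taking the one of highest mean ratio gave 2.99, so the sign for Vcan depends on whether the dim probe sets are read. Smooth muscle cells also make versican, and 0 of 7 of their markers had a log2 fold change above 0, beside 42.0% of all genes. Their median was -0.45. None of these was past the threshold, and 4 were lower at an unadjusted limma p under 0.05. The summed signal of 2 smooth muscle markers was 51145 to 64823 steps in Dox and 71944 to 87825 steps in NoDox, and their part in the Vcan values was not tested.

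**Figure D3:**
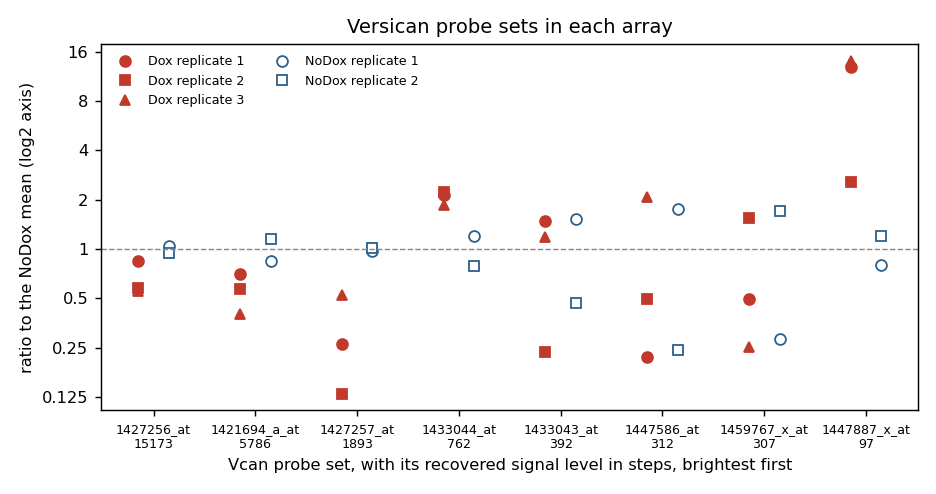
Ratio to the NoDox mean (log2 axis) of the 8 Vcan probe sets in each array, ordered from the brightest (15173 steps) to the dimmest (97 steps), filled for Dox (n = 3) and open for NoDox (n = 2). In the 3 brightest probe sets every Dox array lies below both NoDox arrays, while the dimmest reads 2.55 to 14.1 in Dox.

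Lysyl oxidase was higher in Dox in all 3 of its probe sets, below the threshold. Lox probe set 1416121_at read 2.15, 1.37 and 1.73 in Dox and 1.13 and 0.870 in NoDox. All Dox arrays lay above both NoDox arrays, with replicate 1 highest and replicate 2 lowest. The Dox mean was 1.75 ± 0.390 (SD, n = 3). The log2 fold change was 0.79 ± 0.22, with a confidence interval of 0.31 to 1.28 and an adjusted p of 0.0945. Lox probe set 1448228_at read 2.34, 1.71 and 1.16 in Dox and 1.03 and 0.965 in NoDox, again without overlap, with 0.74 ± 0.30 and an adjusted p of 0.285. The dim probe set 1437903_at, at 741 steps, had overlapping groups and gave 0.68 ± 0.72. Lox was past the threshold without Dox replicate 2 (0.96, adjusted p = 0.0276) and with array weights (0.0448), and over 16 alternatives its adjusted p ran from 0.0209 to 0.526.

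Other genes of the matrix were read from 11 lists with 149 measured genes outside those above, to set the 9 genes beside their partners. Of the 149, 2 were called higher (1.34%, beside 1.37% of all genes) and none lower (beside 1.19%). The median log2 fold change was 0.00, with 74 genes above 0. At an unadjusted limma p under 0.05, 23 were higher (15.4%, beside 6.81% of all genes) and 23 lower (15.4%, beside 10.7%). Ltbp1, which encodes a binding protein that anchors latent TGF-beta in the matrix, read 2.49, 1.76 and 1.75 in Dox and 0.926 and 1.07 in NoDox. Its log2 fold change was 0.98 ± 0.19 with an adjusted p of 0.0324. Itga8, an integrin chain that binds fibronectin and nephronectin, read 1.86, 2.02 and 1.49 in Dox and 1.03 and 0.975 in NoDox, with 0.83 ± 0.17 and an adjusted p of 0.0353. In both genes all Dox arrays lay above both NoDox arrays. Ltbp1 was past the threshold in 8 of 16 alternatives and not without Dox replicate 3 (adjusted p = 0.0765), NoDox replicate 1 (0.303) or NoDox replicate 2 (0.202), over a range of 0.00561 to 0.303. Itga8 was past it in 9 of 16 and not without Dox replicate 1 (0.0718), NoDox replicate 1 (0.261) or NoDox replicate 2 (0.287), over a range of 0.00399 to 0.295.

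In the remaining 9 lists no gene outside the 9 passed the threshold, and the values of smallest p are given for each. Among 12 other small leucine-rich proteoglycans and their relatives, 4 were above 0 and the median was -0.17, with Ecm2 at -1.19 ± 0.31 (adjusted p = 0.0849) and Epyc as above. Among 7 tenascins and thrombospondins, 1 was above 0 and the median was -0.49, with Tnxb at -0.50 ± 0.14 (0.106) and the very dim Tnr at -3.67 ± 1.13 (0.136). Of 23 enzymes that cut versican or build chondroitin sulfate, 15 were above 0 and the median was 0.11. Adamts4, a protease that cuts versican and aggrecan, read 5.43, 2.97 and 3.42 in Dox and 0.817 and 1.18 in NoDox. Its log2 fold change was 1.95 ± 0.51 with an adjusted p of 0.0845, at a dim level of 1630 steps. B3galt6, an enzyme of the linker that attaches the sugar chain to the core protein, was at -0.92 ± 0.24 (0.0825). Of 15 hyalectan and hyaluronan genes, 7 were above 0 and the median was -0.13. The hyaluronan synthase Has3, dim at 2344 steps, gave 1.40 ± 0.42 (0.123), and the hyaluronan-binding Tnfaip6 gave 0.70 ± 0.24 (0.173).

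The partners of fibronectin, SPARC and lysyl oxidase were spread around 0. Of 17 fibronectin partners and matricellular genes, 8 were above 0 and the median was -0.06, with Fbln1 at -0.59 ± 0.15 (adjusted p = 0.0822) and Ecm1 at -0.58 ± 0.16 (0.106). Of 7 genes of the SPARC family, 4 were above 0, with the matricellular Smoc2 at -0.56 ± 0.15 (0.0876) and Spock2 at 0.40 ± 0.20 (0.359). Of 16 crosslinking genes outside Lox, 8 were above 0 and the median was -0.04, with the collagen chaperone Serpinh1 at -0.49 ± 0.14 (0.109) and the procollagen protease Bmp1 at 0.38 ± 0.16 (0.270). Of 13 collagens of fibrils and their partners, 4 were above 0 and the median was -0.03, with Col6a1 at 0.44 ± 0.13 (0.116) and Col1a1 at -0.51 ± 0.16 (0.140). Of the 4 measured relatives of Spp1, which are mostly bone proteins, 2 were above 0, with Mepe at -1.46 ± 0.80 (0.392) and Ibsp at 0.50 ± 0.62 (0.732). The elastic fibre genes, with Ltbp1 among them, had a median of 0.02 over 13 genes, and the 22 matrix receptors, with Itga8 among them, one of 0.10.

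**Figure D4:**
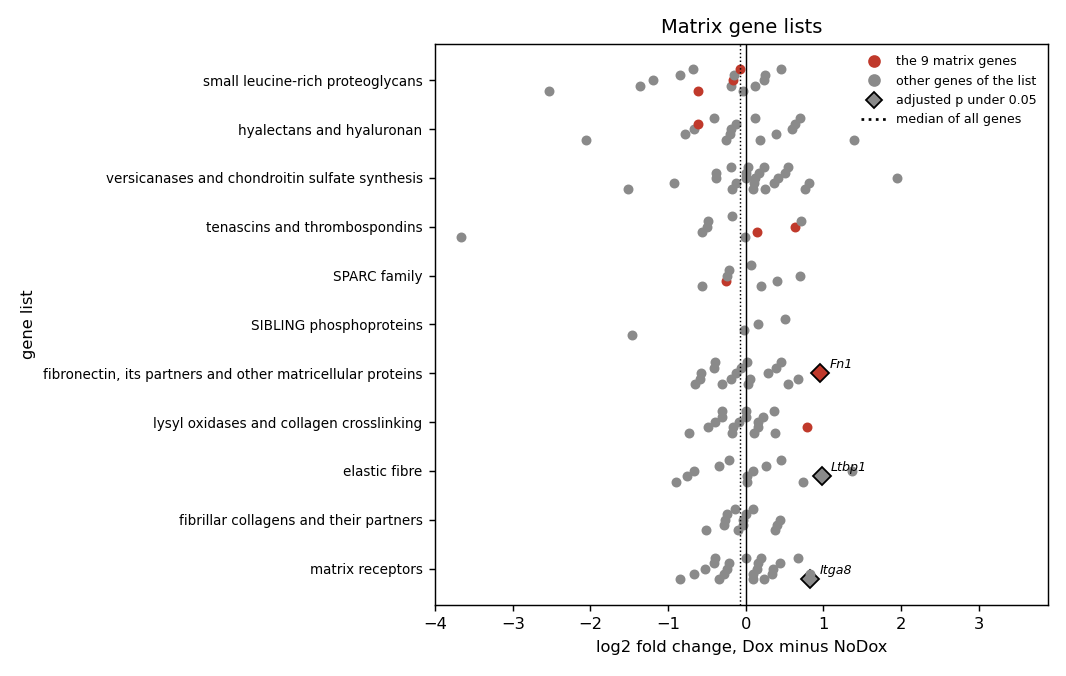
Log2 fold change, Dox minus NoDox, of each measured gene of the 11 matrix lists, with the 9 matrix genes in red and diamonds at adjusted p under 0.05. Fn1 (0.96), Ltbp1 (0.98) and Itga8 (0.83) are the diamonds, and the lists lie on both sides of 0.

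Markers of the other tissues in the organ were read the same way. Of 8 skeletal muscle markers 3 were called lower (Myh7, Myl2 and Myh4), with log2 fold changes of -4.04, -5.96 and -3.06. The others did not pass, with Myh2 at -2.29 and the bright Tnnt3, Ckm, Myh1 and Acta1 at only -0.24, -0.15, -0.13 and -0.08. None of the 8 was above 0, beside 42.0% of all genes. Of 7 endothelium markers 1 was called higher, Plvap at 0.77 ± 0.16. None of 8 cartilage, 5 adipocyte or 7 squamous epithelium markers passed the threshold. At an unadjusted limma p under 0.05 there were 0 cartilage markers, 2 lower adipocyte markers, and 1 higher and 1 lower squamous marker. The part of these tissues in the values of the 9 genes was not tested.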

How the data were processed

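The labels' protocols name Trizol for the RNA, biotin labelling from random primers and Affymetrix arrays. The authors made signals with Microarray Suite 5.0 and, per the labels, normalized them in GeneSpring 7.3.1 to matched controls. What they deposited is a linear ratio per probe set. The NoDox pair adds up to 2 (tolerance 0.0001) for 45099 probe sets out of 45101, which makes the NoDox mean the common denominator. Of the probe sets 34945 had 1 gene symbol, 932 several and 9160 none, and 64 were controls.

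Signal levels were recovered as whole step numbers up to 50000 that, with 1 scale factor per array, give all 5 ratios within a relative tolerance of 3e-07. This succeeded for 40018 of 45098 probe sets (88.7%) and for 7 of 4000 with shuffled ratios (0.175%). The others have a lower bound. Log2 ratios, with no offset or filter, went into limma 3.58.1 under R 4.3.3 (lmFit, then eBayes with a trend on the level), two-sided, with 3 residual and 6.08 prior degrees of freedom. The script was tested on simulated data. For a single gene, 3 arrays against 2 allow no exact permutation p under 0.1. The number of arrays limits the precision.

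Alternatives changed the scaling, offset, filter, probe set, trend, weights, block, threshold and arrays. Where only a lower bound was found, no offset was added, and quantile normalization took the bound as the level. The members and gene lists were chosen with earlier results of these data known. Genes were named by rule. These were all members, the list genes past the threshold or otherwise the 2 of smallest p, and the marker genes past it. The rule added the 2 genes nearest to a called member among probe sets with a recovered level. Kera and Ccer1 were named outside this rule, as neighbours of Lum. The fibroblast and skeletal muscle markers that did not pass were also named outside it. Of the listed matrix genes, 8 had no probe set with them as the only symbol and were not analysed here. Python 3.11.15 with numpy 2.4.6, pandas 2.3.3 and matplotlib 3.10.9 did the recovery and figures.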

Additional observations from a re-analysis of the deposited data

How the results depend on the processing

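Of the log2 fold changes of members and their probe sets recomputed under the alternatives, 461 kept direction and side of the threshold, 10 came past it, 9 lost it and 24 changed sign. Called member genes, 1 higher and 0 lower, became 0 higher without a variance trend or with the trend on the mean log2 ratio, where limma called 6 and 0 genes higher in all, and 2 higher with array weights or at adjusted p under 0.1. Leaving out 1 array gave 0 to 2 higher and 0 to 1 lower. Called member probe sets, 1 higher and 0 lower, became 0 higher without a trend or with the trend on the mean, and 2 at adjusted p under 0.1. Leaving out 1 array gave 0 to 3 higher and 0 to 1 lower. The list genes, 2 higher and 0 lower, became 0 higher with the median offset, the mean over probe sets, no trend or the trend on the mean, 1 with the probe set of highest mean ratio, 4 higher and 4 lower with array weights, and 5 higher and 6 lower at adjusted p under 0.1. Leaving out 1 array gave 0 to 3 higher and 0 to 6 lower. Without a NoDox array the lone one is assumed to vary like the Dox arrays. Over all genes, calls fell to 41 higher and 7 lower without NoDox replicate 1 and to 55 and 12 without NoDox replicate 2, against 250 and 216.

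The replicate block gave 2 higher member genes, 3 higher and 1 lower member probe sets, and 5 higher and 2 lower list genes. Lox came past the threshold with it (0.79, adjusted p = 0.0209), as did the probe sets 1437218_at of Fn1 (0.74, 0.0394), 1416121_at of Lox (0.79, 0.0368) and, lower, 1427257_at of Vcan (-2.43, 0.0405, beside a range of 0.0405 to 0.568 over its alternatives). The deviations of same-numbered arrays correlated at 0.02 and 0.02, over 2 shared numbers. Both correlations use the same difference between the NoDox arrays, so they cannot decide whether same-numbered arrays were matched. Over all genes the block gave 362 higher and 480 lower. The fit without Dox replicate 3, which takes the same arrays without the block, gave 120 and 50.

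Signs turned as follows on the log2 scale. With the probe set of highest mean ratio Sparc was 0.41, Dcn 0.52 and Vcan 2.99, and with the mean over probe sets Dcn was 0.18 and Vcan 0.01. Centred and quantile-normalized, Bgn and its probe set 1448323_a_at were 0.01 and 0.05, and 1437889_x_at 0.05 and 0.09. Without NoDox replicate 2 these were 0.02 and 0.12, and Lox 1437903_at was -0.04. Without NoDox replicate 1 they were -0.17, -0.19 and 1.40. Of the dim Vcan probe sets, 1433043_at was 0.03 (array weights), 0.64 and 0.67 (without Dox replicate 2 and NoDox replicate 1), and was -1.04 without NoDox replicate 2. Vcan 1447586_at was 0.64, 0.05 and 1.33 without Dox replicate 1, Dox replicate 2 and NoDox replicate 1, and -1.53 without NoDox replicate 2. Vcan 1459767_x_at was 0.33 with the replicate block, 0.33 without Dox replicate 3, 1.03 without NoDox replicate 2 and -1.57 without NoDox replicate 1. The cause was not tested.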
